A study of Mus musculus with 6 samples.

Results

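Dual-specificity MAP kinase phosphatases were examined by their transcripts in brown adipocytes that carried scrambled sgRNA or sgRNA against MICT1. The 9 genes of this family taken here were Dusp1, Dusp4, Dusp5, Dusp6, Dusp7, Dusp8, Dusp10, Dusp14 and Dusp16, chosen by gene symbol, and the table of 13283 genes listed 9 of the 9. The RNA came from BAT cells, an immortalized line of mouse brown preadipocytes, which expressed Cas9. The cells were transduced either with lentivirus carrying scrambled sgRNA (Scr, 3 libraries, called WT in the sample labels) or with sgRNA against MICT1, a microprotein of brown fat, sorted by GFP and kept as knockout pools (MICT1 KO, 3 libraries). The cells of all 6 libraries went through adipogenic differentiation and received 10 µM forskolin, which activates adenylyl cyclase, for 6 h at day 6, so no unstimulated cells entered any comparison. The labels do not tell which sgRNA pool each MICT1 KO library came from, and all cells derive from 1 line.

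MAP kinases (ERK, p38 and JNK) are switched on when a threonine and a tyrosine in their activation loop are phosphorylated, and the dual-specificity phosphatases remove both phosphates. Many of these enzymes are themselves induced by the kinase pathways they restrain, or by cAMP, and so act as feedback brakes. In brown adipocytes, p38 acts downstream of protein kinase A (PKA) and is known for driving thermogenic transcription. By location and preference, Dusp1, Dusp4 and Dusp5 are inducible nuclear phosphatases, Dusp6 and Dusp7 are cytoplasmic and act on ERK, Dusp8, Dusp10 and Dusp16 act on JNK and p38, and Dusp14 is a small phosphatase without the MAP kinase-binding domain.

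In MICT1 KO cells most of the family was higher, and Dusp4, the member with the highest level per length in Scr cells, was lower. Dusp8 rose 8.82-fold, Dusp6 2.80-fold and Dusp1 2.61-fold, Dusp10, Dusp14 and Dusp7 rose by smaller steps, and Dusp4 fell 2.15-fold. Dusp5 and Dusp16 did not pass the test. Values were compared as log2(value + 1) by limma-trend, which shares the estimate of spread across genes, and p-values received the Benjamini-Hochberg adjustment over 12507 genes, those that reached 10 in 3 or more libraries. The value is the authors' normalized signal, estimated reads of a gene divided by a size factor of the library. At an adjusted p under 0.05, 6 of 9 members were higher, against 28.5% of all genes tested, and 1 was lower, against 28.3%. In either direction 7 of 9 passed, where 56.9% of all genes did, so passing the test was in itself common in this comparison. At least 2-fold changes were found in 3 members upwards and 1 downwards, against 7.99% and 5.76% of all genes. The MICT1 KO and Scr values did not overlap in 7 of 9 members and in 62.0% of all genes. The median log2 fold change of the 9 was 0.50 and that of all genes tested -0.0053. The members were not chosen by these values, but the list was proposed with results of these libraries known.

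**Figure D1:**
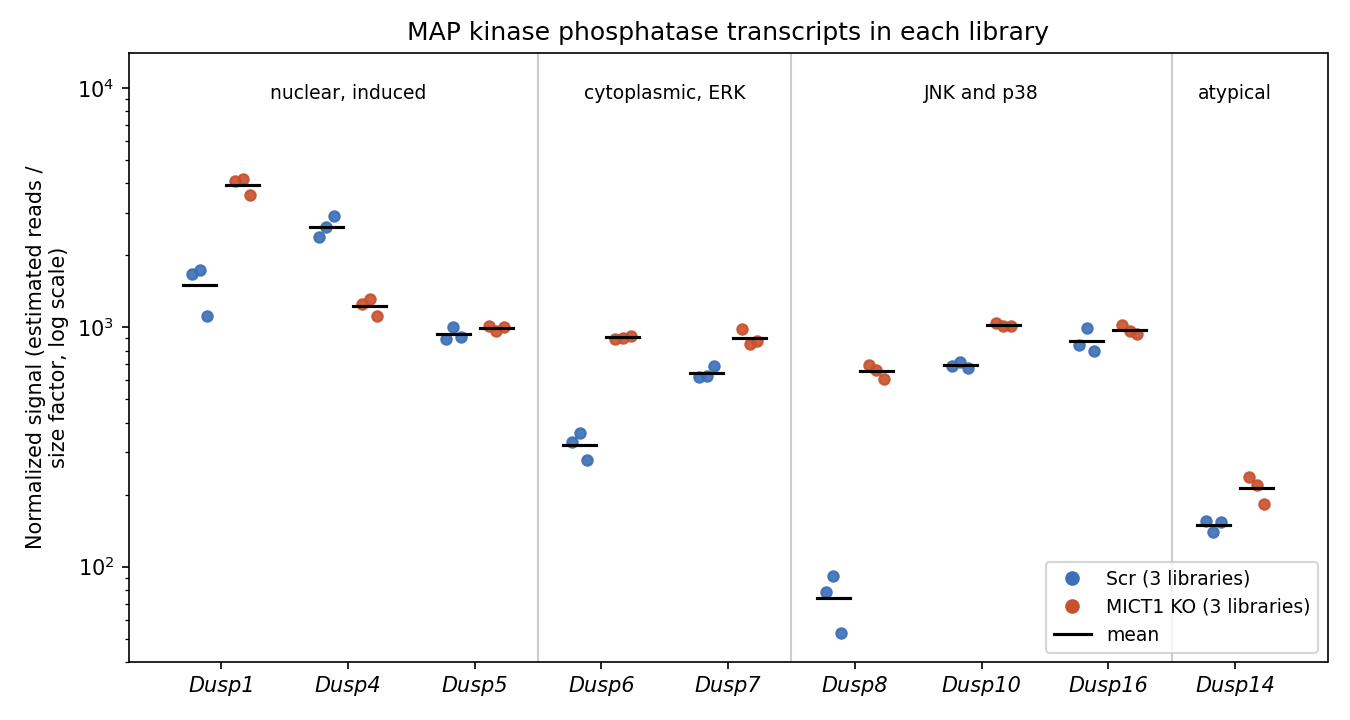
Normalized signal (estimated reads divided by a size factor, log axis) of the 9 phosphatase genes in each library, with points for the 3 Scr and 3 MICT1 KO libraries, bars at the group means and the genes ordered by class. The groups are apart in 7 genes, with MICT1 KO above Scr in 6 of them and below it in Dusp4, and they overlap in Dusp5 and Dusp16.

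The libraries held between 15445812 and 17925628 estimated reads. The members' values corresponded to whole reads in every library, within 0.01 of a read, from 52 reads for Dusp8 in Scr replicate 3 to 4285 reads for Dusp1 in MICT1 KO replicate 1. An exact permutation test of one gene between 3 and 3 libraries cannot give a p below 0.1, which the 7 separated members reached, so the statements on single genes rest on the fit across all genes. The targeted gene, MICT1, was not analysed here and gave no check of the labels. Whether reads were counted by strand is not given in the sources used here, and annotated genes on the other strand overlap Dusp1, Dusp5, Dusp8, Dusp10 and Dusp16. Of these genes the table listed Ergic1 and 1700056E22Rik. Ergic1 overlaps the extent of a long annotated transcript of Dusp1 and fell by 0.31 on the log2 scale. 1700056E22Rik overlaps Dusp10 and did not pass the test (log2 difference 0.11).

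Adipocyte markers and genes of dividing cells differed between the groups. Of 8 adipocyte markers 8 fell, and their summed level went from 7318 to 8846 CPM (the signal scaled to a common library total) in Scr to 892 to 1288 CPM in MICT1 KO libraries. The 5 genes of dividing cells rose, from a sum of 1182 to 1315 CPM to 1996 to 2268 CPM. Among 7 adipose progenitor markers 4 were tested, 2 higher (Ly6a and Pdgfrb) and 2 lower (Dlk1 and Pdgfra), at sums of 266 to 311 CPM in Scr and 286 to 301 CPM in MICT1 KO libraries. Of 8 leukocyte markers the table listed Cd68 and Csf1r, neither of which passed the test, at 4.97 to 7.98 CPM in Scr and 6.19 to 8.68 CPM in MICT1 KO libraries, and the defining markers Ptprc and Adgre1 were not among its rows, which hold only genes above 0 in every library. Of 5 endothelial markers only Cdh5 was listed, at most 0.725 CPM in Scr and 2.03 CPM in MICT1 KO libraries, where it was higher. The 3 muscle markers listed of 7 did not pass. The part of these differences in the changes of the phosphatases was not tested, and in these bulk samples more cells of a type and more RNA per cell cannot be told apart.

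Dusp8, a phosphatase of JNK and p38, changed most. It lies on chromosome 7 from 142079487 to 142095907 (RefSeq, GRCm38). Its values were 78.1, 91.8 and 52.9 in Scr replicates 1 to 3 and 693, 663 and 611 in MICT1 KO replicates 1 to 3. All MICT1 KO values were thus far above all Scr values, of which replicate 3 was the lowest. The means were 74.3 ± 19.7 (SD, n = 3) and 655 ± 41.8 (SD, n = 3). On the log2 scale Dusp8 rose by 3.16 ± 0.17 (SE; limma-trend, adjusted p = 1.25e-12), the 43rd largest rise among the genes tested. With each library left out in turn this difference stayed between 2.94 and 3.33.

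Dusp10 and Dusp16 have the same substrates as Dusp8 but rose less or did not pass. Dusp10 (chromosome 1, 184034381 to 184075636) had Scr values of 690.4, 719 and 678 and MICT1 KO values of 1045, 1014 and 1014. The spread within each group was small beside the gap between them, and Dusp10 rose by 0.56 ± 0.074 on the log2 scale (SE; limma-trend, adjusted p = 1.87e-06). Dusp16 (chromosome 6, 134715468 to 134807063) was at 844, 991 and 794 in Scr replicates 1 to 3, against MICT1 KO values of 1027, 961 and 941, and the groups overlapped at Scr replicate 2. Its log2 difference of 0.16 had a 95% interval from -0.014 to 0.34 and did not pass (limma-trend, adjusted p = 0.110). It passed the threshold only without Scr replicate 2 (0.25, adjusted p = 0.0221), and over the other alternatives its adjusted p reached 0.394.

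Among the nuclear phosphatases, the members went in different directions. Dusp1 (chromosome 17, 26505591 to 26508472), an immediate-early gene whose product acts on p38, JNK and ERK, had Scr values of 1671, 1743 and 1113 and MICT1 KO values of 4085, 4181 and 3559.5. Its lowest MICT1 KO value was above its highest Scr value, and Scr replicate 3 again lay below the other two. The means were 1509 ± 345 (SD, n = 3) and 3942 ± 335 (SD, n = 3), and the rise was 1.41 ± 0.11 on the log2 scale (SE; limma-trend, adjusted p = 8.49e-10). Leaving out Scr replicate 3 gave 1.20, the lowest value with a library left out.

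Dusp4 (chromosome 8, 34807610 to 34819894), whose product is close in structure to that of Dusp1, had Scr values of 2375, 2625 and 2908 and MICT1 KO values of 1249, 1311 and 1113. Here Scr replicate 3 was the highest, and every MICT1 KO value was below every Scr value. The means were 2636 ± 267 (SD, n = 3) and 1224 ± 101 (SD, n = 3), and the log2 difference was -1.10 ± 0.076 (SE; limma-trend, adjusted p = 9.55e-11). Dusp5 (chromosome 19, 53529145 to 53541809), a nuclear phosphatase for ERK, was at 896, 1000.2 and 912 in Scr replicates 1 to 3, against MICT1 KO values of 1012, 966 and 1006. The groups overlapped, and the log2 difference of 0.089 had a 95% interval from -0.064 to 0.24 (limma-trend, adjusted p = 0.316), an interval without a 2-fold change in either direction.

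The cytoplasmic ERK phosphatases both rose. Dusp6 (chromosome 10, 99263231 to 99267489), a feedback inhibitor that ERK signaling induces, had Scr values of 331, 362 and 279 and MICT1 KO values of 896, 902 and 923. The 3 MICT1 KO values lay close together, at 907 ± 13.9 (SD, n = 3) against 324 ± 41.9 (SD, n = 3) in Scr, and Dusp6 rose by 1.49 ± 0.0998 on the log2 scale (SE; limma-trend, adjusted p = 5.62e-11). Dusp7 (chromosome 9, 106368560 to 106375724), its closest relative in the list, had Scr values of 621, 628 and 687 and MICT1 KO values of 986, 856 and 877. The groups did not overlap, and Dusp7 rose by 0.49 ± 0.083 on the log2 scale (SE; limma-trend, adjusted p = 4.24e-05).

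Dusp14 (chromosome 11, 84048033 to 84069256) had Scr values of 155, 140.0 and 154 and MICT1 KO values of 237, 219 and 182. MICT1 KO replicate 3 was closest to the Scr range without reaching it. It rose by 0.50 ± 0.15 on the log2 scale (SE; limma-trend, adjusted p = 0.00866), and without MICT1 KO replicate 1 the rise was 0.42 with an adjusted p of 0.0469, the highest among the called members with a library left out.

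Per length, the order of the members changed at its top and bottom. Levels were computed as RPKM, the signal divided by the length of the gene in kilobases and by the sum of the library, with the union of the exons in GENCODE vM21 as length. In Scr libraries Dusp4 stood first at 58.7 ± 5.56 RPKM (SD, n = 3), followed by Dusp1 at 27.8 ± 6.35 and Dusp5 at 23.1 ± 1.06, which overlapped. Below them came Dusp10 at 14.0 ± 0.335, Dusp7 at 11.8 ± 0.649, Dusp16 at 6.86 ± 0.729 and Dusp6 at 6.32 ± 0.788 RPKM, the last pair overlapping. Dusp14 at 4.70 ± 0.329 and Dusp8 at 0.931 ± 0.242 RPKM were the lowest.

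In MICT1 KO libraries Dusp1 stood first at 72.9 ± 6.00 RPKM (SD, n = 3), and Dusp4 followed at 27.4 ± 2.22 RPKM, overlapping with Dusp5 at 24.7 ± 0.566 RPKM. Dusp10 was at 20.6 ± 0.235 RPKM. Dusp6 at 17.7 ± 0.362 RPKM now overlapped with Dusp7 at 16.5 ± 1.17 RPKM, and Dusp8 at 8.25 ± 0.482 RPKM with Dusp16 at 7.67 ± 0.304 RPKM, which put Dusp14 last at 6.71 ± 0.847 RPKM. For Dusp1 the exon union, 3311 bases, is longer than the longest coding transcript, 1990 bases, and by the latter its level was 46.3 RPKM in Scr and 121 RPKM in MICT1 KO libraries. The lower end of the order also rests on the length chosen. By the longest coding transcript, Dusp16 was at 11.7 RPKM in MICT1 KO libraries and above Dusp8 at 8.36 RPKM in each of them, and Dusp8 overlapped with Dusp14 at 8.30 RPKM.

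The summed level of the 9 genes went from 154 ± 4.39 RPKM in Scr to 203 ± 9.22 RPKM in MICT1 KO libraries (SD, n = 3), a ratio of 1.31, or 1.45 with the length of the longest coding transcript. The make-up of the sum differed between the groups. Dusp4 held 35.3% to 42.9% of it in Scr and at most 14.2% in MICT1 KO libraries, and Dusp1 13.6% to 20.5% and 34.5% to 37.4%. Dusp8 held at most 0.712% in Scr and at least 4.02% in MICT1 KO libraries. By class, the nuclear phosphatases summed to 109.7 ± 3.44 RPKM in Scr and 125 ± 7.76 RPKM in MICT1 KO, those for JNK and p38 to 21.8 ± 1.27 and 36.5 ± 0.964 RPKM, and the cytoplasmic ERK phosphatases to 18.1 ± 0.148 and 34.3 ± 0.963 RPKM (SD, n = 3). The ratio of MICT1 KO to Scr was 1.14, 1.68 and 1.90 in that order of the classes, and 1.35, 1.60 and 1.92 with the longest coding transcript. These sums are descriptions and were not tested.

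**Figure D2:**
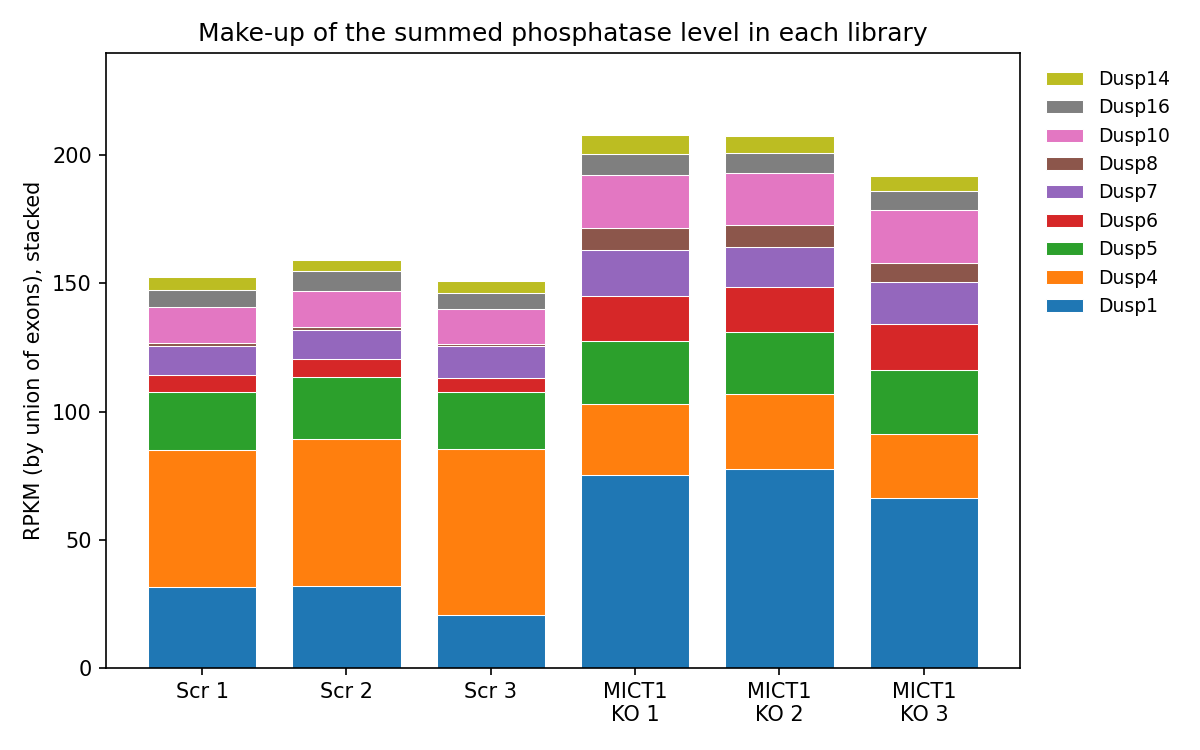
Level per length (RPKM by the union of exons) of the 9 phosphatase genes, stacked for each of the 3 Scr and 3 MICT1 KO libraries. Dusp4 is the widest band in Scr libraries, at 35.3% or more of the sum, and Dusp1 in MICT1 KO libraries, at 34.5% or more.

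Ratios between members within one library do not depend on how libraries are scaled, but do depend on the length chosen, here the union of exons. The RPKM of Dusp1 over that of Dusp4 was 0.582, 0.549 and 0.317 in Scr replicates 1 to 3 and 2.71, 2.64 and 2.65 in the MICT1 KO replicates, so Dusp4 was above Dusp1 in every Scr library and below it in every MICT1 KO library. For Dusp6 over Dusp7 the Scr ratios were 0.572, 0.616 and 0.435 and the MICT1 KO ratios 0.974, 1.13 and 1.13. Dusp8 over Dusp16 went from 0.148, 0.148 and 0.107 to 1.08, 1.10 and 1.04. By the longest coding transcript, Dusp1 over Dusp4 was 0.527 to 0.969 in Scr and at least 4.39 in MICT1 KO libraries, and Dusp8 over Dusp16 was 0.0708 to 0.0984 and 0.689 to 0.733, which left Dusp8 below Dusp16 in every library. In each of these ratios Scr replicate 3 was the farthest from the MICT1 KO libraries.

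The position of that library was counted over the members. Of the 7 members that passed the test, Scr replicate 3 was the Scr library farthest from the MICT1 KO values in 5 (Dusp1, Dusp4, Dusp6, Dusp8 and Dusp10), and the same held for 48.9% of all 7113 genes that passed. It also had the highest adipocyte marker sum of the Scr libraries, 8846 CPM against 8394 and 7318 CPM. The 7 calls held without it.

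Promoter sequences were compared because forskolin acts through cAMP and PKA, whose transcription factor CREB binds the cAMP response element (CRE). RefSeq (GRCm38.p6) gave the 250 bases before an annotated start for 8 of the 9 genes, not for Dusp4. Motifs searched on both strands were the full CRE (TGACGTCA), its core as a partial CRE (TGACG, which each full CRE holds on either strand), the AP-1 motif (TGANTCA) and the CArG box, the site of serum response factor. The stretches from 200 to 51 bases before the start are printed for the 3 members that held a full CRE or a CArG box and for Dusp6, which rose 2.80-fold and held neither. They are written on the strand of the gene, with capitals for every motif match. Dusp8 is at chr7:142095335-142095484 (minus strand), Dusp1 at chr17:26508523-26508672 (minus strand), Dusp5 at chr19:53528945-53529094 (plus strand) and Dusp6 at chr10:99263031-99263180 (plus strand).
Dusp8: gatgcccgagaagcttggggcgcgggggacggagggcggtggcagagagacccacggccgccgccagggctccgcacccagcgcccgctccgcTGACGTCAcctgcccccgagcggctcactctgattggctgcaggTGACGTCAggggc
Dusp1: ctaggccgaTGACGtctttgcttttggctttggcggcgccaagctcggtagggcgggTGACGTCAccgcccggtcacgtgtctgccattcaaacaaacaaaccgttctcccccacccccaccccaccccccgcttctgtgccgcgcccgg
Dusp5: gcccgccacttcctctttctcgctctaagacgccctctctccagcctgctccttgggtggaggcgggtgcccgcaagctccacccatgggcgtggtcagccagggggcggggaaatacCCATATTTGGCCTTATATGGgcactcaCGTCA
Dusp6: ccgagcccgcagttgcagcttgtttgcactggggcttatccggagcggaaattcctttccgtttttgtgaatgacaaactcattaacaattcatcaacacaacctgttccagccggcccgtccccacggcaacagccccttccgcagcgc

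The start used for Dusp8 lies 12 bases before the start of 1 of its 2 GENCODE transcripts and 559 bases after that of the other, so its window is inside the gene in the second. The start used for Dusp1 is also that of a GENCODE transcript, and 2 of its 6 transcripts begin farther upstream. The window of Dusp8 held 2 full CREs, whose first bases were at -107 and -63 from the start, and that of Dusp1 held 1 at -143 and a separate partial CRE at -191. Of all 32851 promoter windows in the table, 1.55% held a full CRE and 0.0304% held 2 or more. The partial CRE alone was found in Dusp5 and Dusp16, and in 17.8% of all windows in any form. Dusp5 held 2 CArG boxes that adjoin, starting at -82 and -72. Of all windows, 1.47% held at least 1 CArG box and 0.0183% held 2 or more. The only GENCODE transcript of Dusp5 begins 36 bases before the start used. No AP-1 match was found in the 8 windows (6.75% of all windows held one), and Dusp6, Dusp7, Dusp10 and Dusp14 held none of the letters searched. Of the 6 genes that rose, 2 held a full CRE and 4 did not, and Dusp5, with the CArG boxes, did not pass the test. Dusp4, the only member called lower, had no window. A link between these motifs and the changes was not tested. A match is a description of the letters and no measure of binding, and other starts of these genes were not searched.

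**Figure D3:**
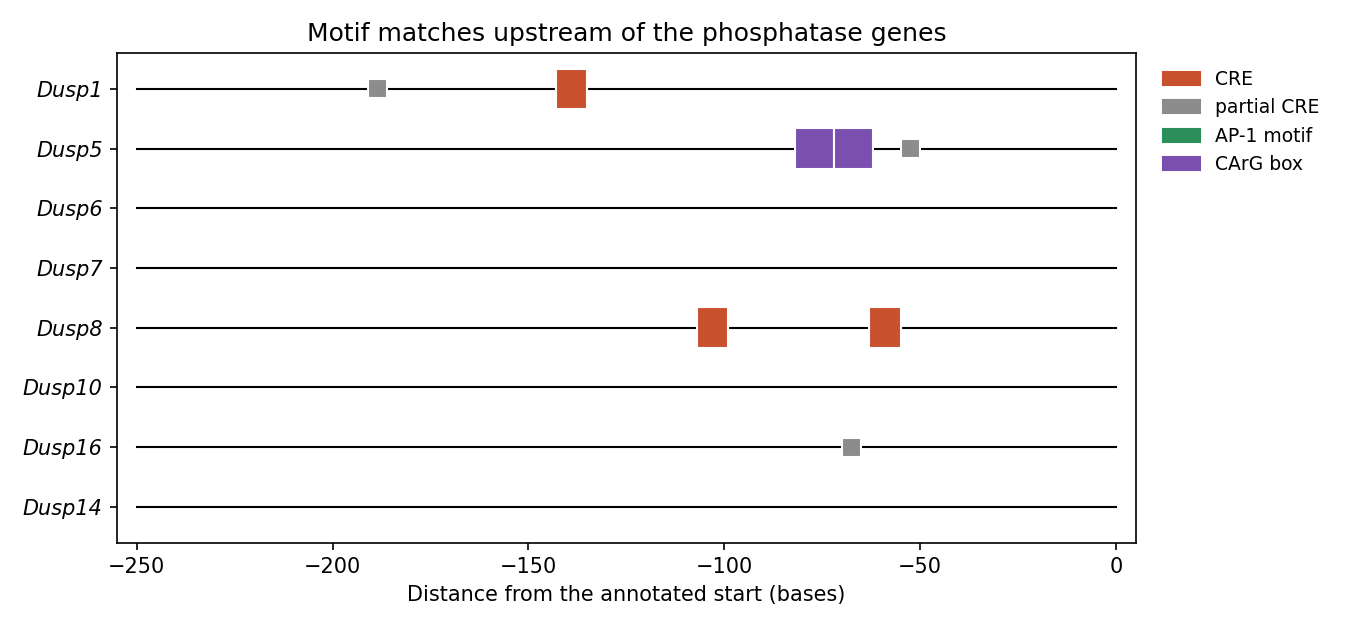
Motif matches in the 250 bases before an annotated start of 8 phosphatase genes, by distance from that start in bases, with tall boxes for full CREs and CArG boxes and short boxes for partial CREs outside a full CRE. Full CREs are in Dusp8 (2) and Dusp1 (1), the CArG boxes are in Dusp5, and no AP-1 match is present.

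Other genes of the family and the pathway were read from fixed lists. The counts of each list stand beside 28.5% higher and 28.3% lower, or 56.9% in either direction, over all genes tested. Of 13 tested genes of other DUSP and slingshot phosphatases, 2 rose and 4 fell, with a median log2 fold change of -0.12. Dusp22, a small phosphatase linked to JNK signaling, fell from 571 ± 53.4 to 200.4 ± 13.8 (SD, n = 3), a ratio of 0.351 (limma-trend, adjusted p = 4.88e-10). Dusp3, a small phosphatase of ERK and JNK, rose from 106 ± 24.1 to 225 ± 6.54 (SD, n = 3), by 1.10 on the log2 scale (limma-trend, adjusted p = 2.07e-05). Dusp18 fell by 0.74 and the slingshot phosphatase gene Ssh3 rose by 0.65 on the log2 scale, and both lost their calls without MICT1 KO replicate 1, Dusp18 also without Scr replicate 2 and Ssh3 without Scr replicate 3. The remaining MAP kinase phosphatases of the table were Dusp9, a relative of Dusp6 and Dusp7 that did not pass (log2 difference -0.12; limma-trend, adjusted p = 0.362), and Dusp2, at a mean of 6.49 in Scr and 4.14 in MICT1 KO libraries and below the filter.

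Most genes of the substrates did not pass. Among 8 MAP kinase genes 2 rose, 1 fell and 5 did not pass, with a median of 0.016 that changed sign when single libraries were left out (-0.016 to 0.046). Mapk11, which encodes the β form of p38, rose from 15.8 ± 4.01 to 57.3 ± 15.2 (SD, n = 3), by 1.78 on the log2 scale (limma-trend, adjusted p = 0.000217), and Mapk14, which encodes the α form, fell by 0.38 on the log2 scale. On the same scale the JNK genes Mapk8 at -0.056 and Mapk9 at 0.094 did not pass. Mapk3 (ERK1) rose by 0.23, a call lost without Scr replicate 2. Of 7 MAP kinase kinases 4 fell and 1 rose, with a median of -0.23. Map2k4, which activates JNK, fell by 0.55, Map2k6, which activates p38, by 0.47, Map2k1, which activates ERK, by 0.23 and Map2k7, which activates JNK, by 0.17. Map2k2, which activates ERK, passed as higher but not with the replicate number as a block or without any one of 4 libraries (Scr replicates 1 and 3, MICT1 KO replicates 1 and 3), Map2k6 lost its call without Scr replicate 1 or 2 or MICT1 KO replicate 2, and Map2k7 with upper quartile scaling or without Scr replicate 3.

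Genes linked to the kinase pathways moved in both directions, in a comparison where 28.5% of all genes tested were higher and 28.3% lower. Of 19 ERK feedback inhibitors and ERK-induced genes 12 rose and 6 fell, with a median of 0.53. Ier3 (2.11), Etv4 (2.01) and Egr1 (1.82), genes induced by growth factor signaling, rose as Dusp6 did. Spry1, a feedback inhibitor upstream of ERK, fell by 2.12 on the log2 scale. The other feedback inhibitors of the list, the Spry and Spred genes, went in both directions, with more falling than rising. Of 12 genes listed as effectors of p38 and JNK, 6 rose and 1 fell, with a median of 0.33. Not all of them are genes that these pathways induce. Atf3 (2.03), Gadd45b (1.71), Gadd45a (1.70) and Jun (0.83) rose, and Mapkapk2 passed as lower (-0.14) but lost its call in 7 of 14 alternatives: both other scalings, the replicate block, and leaving out Scr replicate 2 or 3 or MICT1 KO replicate 2 or 3. Among 12 cAMP early-response genes 5 rose and 6 fell, with a median of -0.042. The lists overlap here, since Fos is also counted among the ERK-induced genes and Atf3 in the list of p38 and JNK effectors. Nr4a2 (1.69), Fos (1.24) and Atf3 rose as Dusp1 and Dusp8 did, and Pde4d, a cAMP phosphodiesterase gene, had 0.495 of its Scr mean in MICT1 KO libraries and passed as lower, so the direction of Dusp1 and Dusp8 was not that of the whole list.

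**Figure D4:**
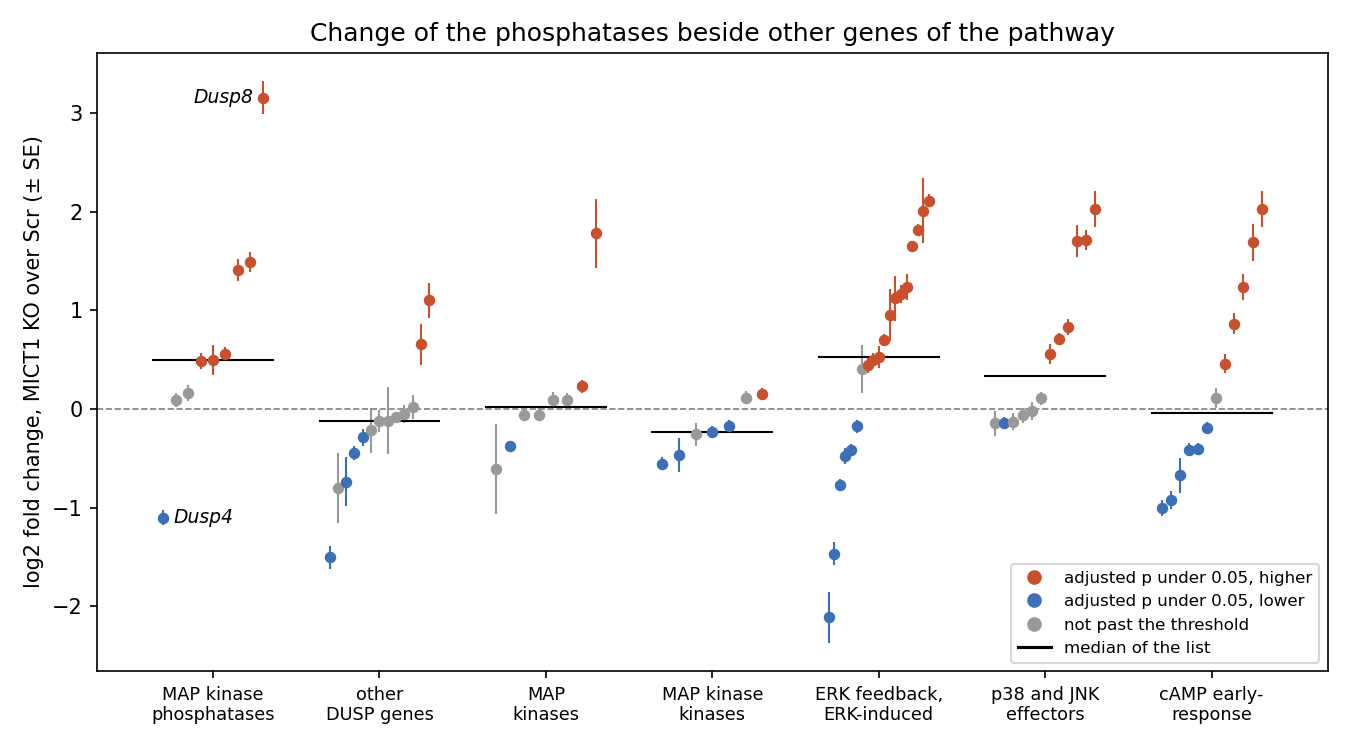
Log2 difference, MICT1 KO over Scr, (points, with the standard error) for the 9 phosphatase genes and the tested genes of 6 lists of the pathway, with a bar at each median. Dusp8 has the largest rise of all genes drawn, and the medians run from -0.23 for MAP kinase kinases to 0.53 for ERK feedback and ERK-induced genes.

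Patterns across the libraries were compared by the root mean square difference of log2(value + 1), each gene centred on its own mean, over 6 libraries and 9928 genes with a mean of at least 100. The genes closest to Dusp8 were Cp, which encodes ceruloplasmin, at 0.105, Filip1l at 0.143 and Ifit1, an interferon-induced gene, at 0.152. Closest to Dusp4 were Tmem170b at 0.0359, Cda at 0.0446 and Nfia at 0.0563. On the log2 scale Cp rose by 3.25, beside 3.16 for Dusp8, and Tmem170b fell by 1.07, beside -1.10 for Dusp4. Such nearness follows from how the genes were picked, since all 6 libraries share these 2 groups.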

How the data were processed

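The 6 libraries were mapped to groups from their titles. Per the methods, the authors prepared strand-specific total RNA libraries, sequenced them in pairs and aligned reads to mm10 with Partek software, and the processing notes also name STAR and DESeq2, without roles or versions. The counting model and gene annotation are not given in the sources used here. The table the authors deposited holds a normalized signal per gene, not counts: 88.7% to 90.2% of values under 20 were whole multiples (within 0.01) of a step per library, whose inverse, the size factor, was 0.949 to 1.08. No test for counts was therefore run.

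Values were compared as log2(value + 1), which understates changes of low genes, by limma-trend (limma 3.58.1, R 4.3.3) over the 12507 genes with at least 10 in at least 3 libraries, with Benjamini-Hochberg adjustment and a threshold of 0.05. The alternatives were library size and upper quartile scaling, limma-voom, pseudocounts of 0.5 and 5, no filter and a filter on a mean of 50, the replicate number as a block and each library left out. The length of the longest coding transcript was added after seeing the data. The members and lists were chosen with earlier results of these data known. Beside all members, the rule named up to 4 called genes per list with the largest changes and the 3 genes most like the members with the largest rise and fall. Mapk8, Mapk9, Map2k2, Mapkapk2, Dusp2 and Dusp9 were named after their values were seen, and the direction of the other Spry and Spred genes was also added then. One gene of the lists is not reported here by name. The methods call all replicates of the study biological, and the labels do not say how the cultures of these libraries were separated.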

Additional observations from a re-analysis of the deposited data

How the results depend on the processing

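The members' calls held in nearly every setting. Of 126 fold changes (9 members under 14 alternatives), 125 stayed on their side of the threshold and none changed sign. The exception was Dusp16, called higher without Scr replicate 2, so that 6 or 7 members were higher with single libraries left out and 1 was lower in each. Over all genes, 6340 to 6596 passed with single libraries left out. The summed level of the members, MICT1 KO over Scr, was 1.31 with the union of exons and moved to 1.45 with the longest coding transcript as length. With the replicate block 6 members were higher and 1 lower, and 7055 genes passed against 7113. The numbers gave no pairing, since the deviations of same-numbered libraries correlated at -0.024, -0.015 and 0.064 over the genes tested, and only number 3 correlated best with its own. Upper quartile scaling moved the median of all genes from -0.0053 to 0.032 and the split to 3835 higher and 3194 lower. Dusp8 rests on 52 to 99 reads per Scr library, the lowest depth among the members.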
